A study of Homo sapiens with 6 samples.

Results

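RFXANK, its overlapping chromosome 19 neighbours and the other regulators and targets of the class II antigen-presentation programme were followed in HGC-27 cells treated with GLUP. The 8 genes, found by symbol among the 62443 genes of the expression table, were RFXANK, NR2C2AP and BORCS8 at the RFXANK locus, RFX5 and RFXAP, which complete the RFX complex, the transactivator CIITA, and the targets CD74 and HLA-DRA. HGC-27 is an established human line from an undifferentiated gastric carcinoma. Each group held 3 libraries: the Con cells, labelled as having no treatment and described in the methods as receiving the peptide's buffer, and the GLUP cells, given a cyclic peptide made from the TEAD4-binding part of VGLL4. The labels give no dose or time for these libraries, the study's text gives conflicting treatment times in its results and its methods, and the labels do not say whether the 3 samples of a group came from separate cultures (the methods speak of biological replicates), so p-values measure the spread between these samples. The question was how gene expression changed with the peptide; RFXANK was one of the cofactors that the study examined for inducing condensation of the transcription factor TEAD4.

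RFXANK, RFX5 and RFXAP form a trimer that binds the X box of class II promoters. There it joins CREB-family factors on the X2 box and NF-Y on the Y box, and this assembly recruits CIITA, a co-activator that binds no DNA itself and whose level sets where class II genes are switched on. Antigen-presenting cells make CIITA constitutively, many other cells only after interferon-gamma, and loss of any of these 4 regulators causes an immunodeficiency in which class II molecules are missing. The same RFX and NF-Y module lies in promoters of class I genes and B2M.

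The genes were chosen by symbol around RFXANK, which was selected on its FPKM values in these libraries and above all on its low level in Con replicate 2; its levels and group difference are therefore given as a description with no test. Con replicate 2 stood apart over many genes, being the lowest of the 6 libraries in 28.8% of the 7406 genes tested, those averaging 1 FPKM or more (a fragment count scaled by transcript length and library size), so a printed difference that it moves by over 1.5 times is also given without it. The libraries had 20061 to 21498 genes above 0. The spacing of the lowest values gave an approximate number of fragments behind each level, which would double if a smaller spacing, also seen, were that of 1 fragment. The median log2 difference over tested genes was -0.23 (GLUP minus Con) as deposited and -0.0080 after a trimmed-mean rescaling, and 65.5% of tested genes had a lower mean in GLUP. Of markers of the labelled cell type, EPCAM and CDH1 did not exceed 0.124 FPKM in any library, and VIM ranged from 222 to 387 FPKM. CDH2, a mesenchymal marker as VIM is, did not exceed 0.0508 FPKM and was at 0 in GLUP. The keratins KRT8, KRT18 and KRT19 lay between 0.764 and 2.51 FPKM. Each keratin was higher in GLUP without overlap between groups, as were 7.55% of all tested genes. KRT18 and KRT19 averaged 0.959 and 0.865 FPKM in Con, so they passed the minimum only through GLUP. The log2 differences of KRT8, KRT18 and KRT19 were 0.41, 0.67 and 0.31. After removal of a trend with GC content and length they were 0.10, 0.40 and -0.06. Near the floor, CDH1 was lower in GLUP, at 0.0148 to 0.0799 FPKM in Con and 0 in GLUP. EPCAM also had the lower mean in GLUP (0.0150 against 0.0668 FPKM).

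RFXANK (ENSG00000064490) lies at chr19:19303038-19312678 on the plus strand of GRCh37 and has 10 exons in its canonical transcript of 1376 bases. NR2C2AP (ENSG00000184162), which encodes a partner of the nuclear receptor NR2C2, lies at chr19:19312218-19314223 on the minus strand, and its 3′ end runs into that of RFXANK: their canonical exons share 218 bases, which is 16.9% of NR2C2AP and 15.8% of RFXANK. BORCS8 (ENSG00000254901), which encodes a subunit of the lysosome-positioning complex BORC, lies at chr19:19287712-19303400 on the minus strand and starts head to head with RFXANK. Its canonical exons share 0 bases with those of RFXANK, but all annotated exons share 363. Whether reads were counted by strand is not given in the sources used here, and without strand, reads from the shared stretches cannot be assigned to either gene. These coordinates come from GENCODE release 44 lifted to GRCh37, because 84.9% of the table's identifiers carry the suffix of a lifted annotation, although the submitters' processing notes name GRCh38.p10.

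**Figure D1:**
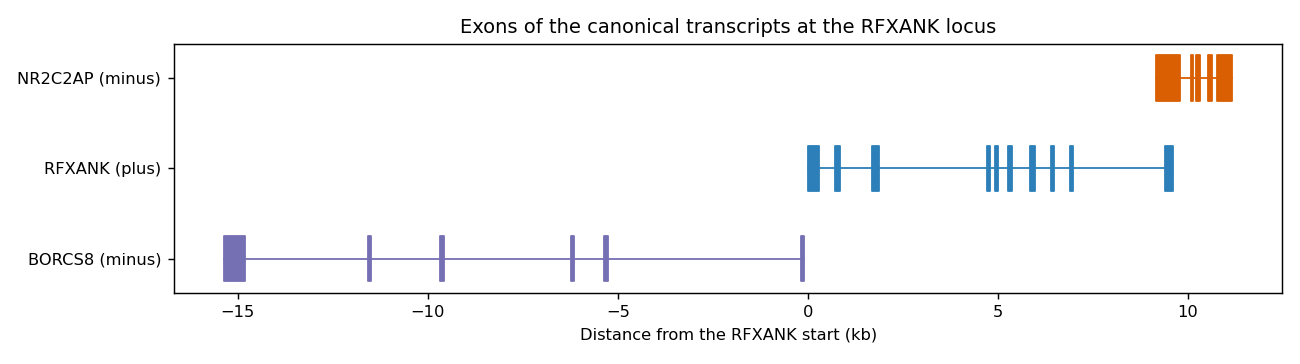
Map of the RFXANK locus: canonical exons as boxes on their strands, plotted against the distance in kilobases from the RFXANK start. RFXANK and NR2C2AP share 218 exonic bases at their 3′ ends, while BORCS8 starts on the other strand beside RFXANK.

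The shared start of RFXANK and BORCS8 is printed here, since it is the stretch from which both genes are read. It is RefSeq sequence of GRCh38.p14, chr19:19192008-19192307, plus strand, running from 250 bases before the RFXANK start to 50 bases after it. Capitals mark the 107 bases from one start site to the other, which are 106 bases apart.

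RFXANK and BORCS8 start: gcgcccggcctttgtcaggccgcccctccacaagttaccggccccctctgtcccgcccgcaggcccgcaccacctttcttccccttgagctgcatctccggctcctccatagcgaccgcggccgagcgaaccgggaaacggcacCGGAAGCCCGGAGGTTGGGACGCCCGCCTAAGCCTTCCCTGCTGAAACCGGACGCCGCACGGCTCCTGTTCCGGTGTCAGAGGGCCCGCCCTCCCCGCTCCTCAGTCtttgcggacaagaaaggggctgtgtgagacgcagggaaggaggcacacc

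The 300-base windows of 3 genes of the programme are shown beside it, because the boxes read by the RFX complex and NF-Y lie in such windows. They are RefSeq sequences of GRCh38.p14 on the minus strand at chr6:32589799-32590098 for HLA-DRB1, the minus strand at chr5:150412861-150413160 for CD74 and the plus strand at chr15:44711267-44711566 for B2M. Capitals mark exact matches on either strand to the X1 core AGCAAC, the known RFX-binding letters, and to the Y core, the letters of NF-Y. The Y core reads ATTGG or, on the other strand, its reverse complement, and no printed match overlaps another.

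HLA-DRB1: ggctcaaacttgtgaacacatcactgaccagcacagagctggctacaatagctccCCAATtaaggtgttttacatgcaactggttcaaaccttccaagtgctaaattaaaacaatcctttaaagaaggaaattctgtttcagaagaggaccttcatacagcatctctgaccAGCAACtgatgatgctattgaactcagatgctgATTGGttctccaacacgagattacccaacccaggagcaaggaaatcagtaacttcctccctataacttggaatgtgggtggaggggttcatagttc
CD74: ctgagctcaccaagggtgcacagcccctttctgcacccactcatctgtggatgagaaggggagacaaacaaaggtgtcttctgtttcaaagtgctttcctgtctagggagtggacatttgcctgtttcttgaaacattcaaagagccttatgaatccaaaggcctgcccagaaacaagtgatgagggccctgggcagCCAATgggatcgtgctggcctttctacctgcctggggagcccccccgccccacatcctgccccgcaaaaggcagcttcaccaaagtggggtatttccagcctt
B2M: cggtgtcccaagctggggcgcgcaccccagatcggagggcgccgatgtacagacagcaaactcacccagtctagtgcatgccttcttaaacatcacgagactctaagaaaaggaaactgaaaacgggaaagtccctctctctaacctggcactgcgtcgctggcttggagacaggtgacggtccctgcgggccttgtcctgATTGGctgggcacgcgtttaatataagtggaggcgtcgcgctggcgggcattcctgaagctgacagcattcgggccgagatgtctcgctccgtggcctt

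HLA-DRB1, a class II beta chain, held the X1 core 79 bases and the Y core 46 bases before its start, with a further Y core at 195 bases. CD74, the invariant chain that guides class II molecules through the cell, held the Y core 53 bases before its start and no exact X1 core. B2M, the light chain of class I molecules, held the Y core 49 bases before its start and no exact X1 core. HLA-DMA, an editor of class II peptide loading, held Y cores at 49 and 79 bases and an X1 core at 216 bases. A Y core lay within 46 to 57 bases of the start in the windows of HLA-DRB1, HLA-DMA, CD74, B2M, HLA-B, HLA-C and HLA-F. Over 35116 RefSeq windows, 12.8% held the X1 core, 34.6% the Y core, 4.87% both and 2.47% the X2 core TGCGTCA, so single matches are common. Among the 8 genes, 6 had a window; that of RFX5 (its first of 3) held an X1 core 21 bases and Y cores 95 and 177 bases before the start, while those of NR2C2AP, BORCS8, RFXAP and the first 2 of 3 of RFXANK held none of these letters.

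RFXANK was by far the most abundant of the regulators and was level across the libraries but for one. It measured 289, 44.9 and 306 FPKM in Con replicates 1, 2 and 3, and 289, 283 and 380 FPKM in GLUP replicates 1, 2 and 3. Con replicate 2 was the low library, and the remaining 5 lay between 283 and 380 FPKM with the groups overlapping. Mean levels were 213 ± 146 FPKM in Con and 317 ± 54.3 FPKM in GLUP (SD, n = 3 each), a log2 difference of 0.98 (SE 0.63) on the log2(FPKM + 1) scale. Without Con replicate 2 the difference was 0.08 (SE 0.22), and without Con replicate 3 it was 1.45. Ranked by level among the 7406 genes, RFXANK was 962nd in Con replicate 2, whereas its rank elsewhere ran from 297 to 352.

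NR2C2AP was also lowest in Con replicate 2. It measured 7.94, 3.26 and 8.08 FPKM in the Con libraries and 8.14, 7.80 and 8.91 FPKM in the GLUP libraries. Outside Con replicate 2, the Con values lay within the GLUP range. Means were 6.43 ± 2.74 and 8.28 ± 0.570 FPKM (SD, n = 3 each), with a log2 difference of 0.40 (SE 0.34, limma adjusted p = 0.463). Without Con replicate 2 the difference was 0.04.

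BORCS8 had the same low library but varied more among the rest. It measured 6.89, 2.70 and 9.36 FPKM in the Con libraries and 10.2, 8.84 and 6.63 FPKM in the GLUP libraries. GLUP replicate 3, which had the highest RFXANK level, had the lowest BORCS8 level outside Con replicate 2. Means were 6.32 ± 3.37 and 8.56 ± 1.81 FPKM (SD, n = 3 each), with a log2 difference of 0.49 (SE 0.39, limma adjusted p = 0.434). Without Con replicate 2 it was 0.06.

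**Figure D2:**
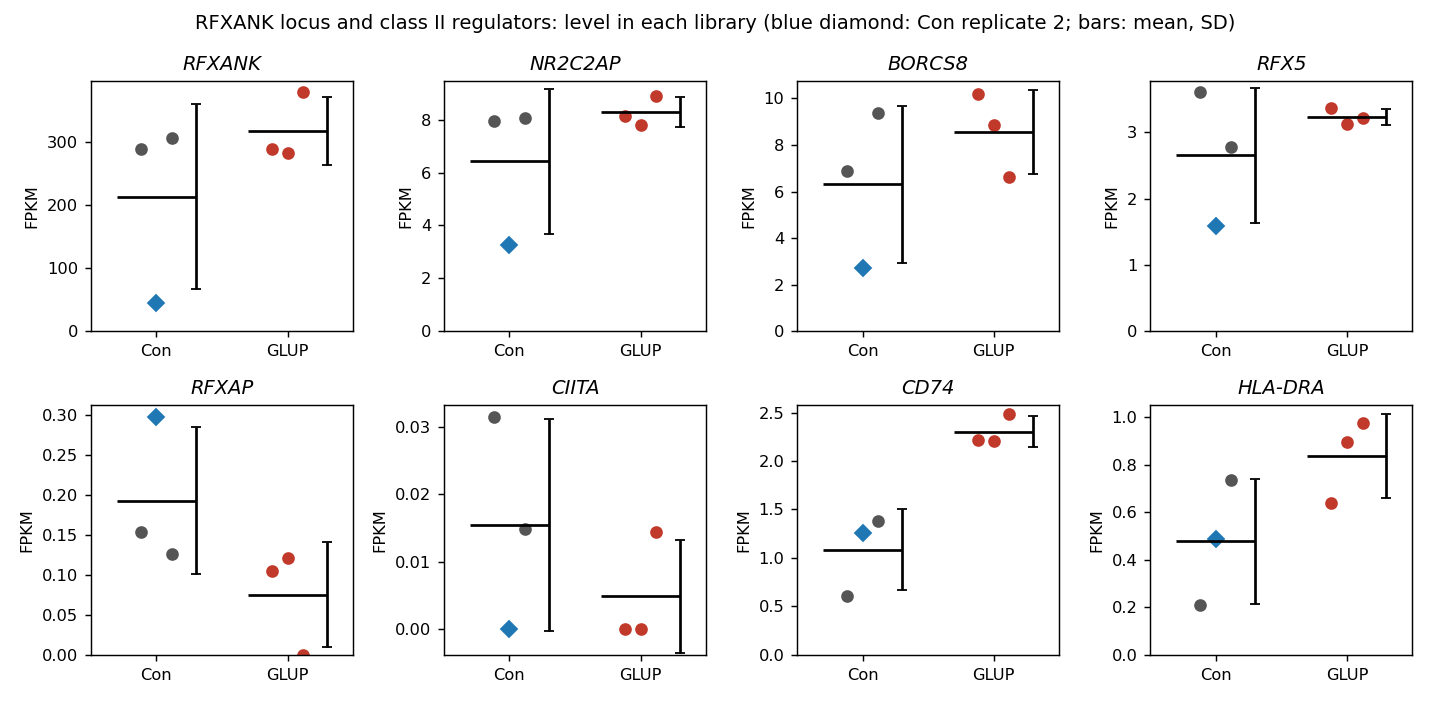
Level of each of the 8 genes in each library (FPKM, linear axes of their own scale), one panel per gene, with each library as a point, horizontal bars at the group means, vertical bars of 1 SD, and Con replicate 2 as a blue diamond. RFXANK falls to 44.9 FPKM in Con replicate 2 and lies between 283 and 380 FPKM elsewhere, whereas the 3 GLUP libraries of CD74 all lie above the 3 Con libraries.

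The 3 locus genes did not keep 1 ratio between libraries. Per length, RFXANK made up 95.1% to 96.7% of the summed FPKM times kilobases of the 3 genes in 5 libraries and 90.0% in Con replicate 2. NR2C2AP stood at 7.27% of the RFXANK level in Con replicate 2 against 2.35% to 2.82% elsewhere, and BORCS8 at 6.01% against 1.74% to 3.53%. With RFXANK making up at least 90.0% of it, the length-weighted total had to follow RFXANK and is no separate check of the gap. The total was 415, 68.7 and 441 in the Con libraries and 418, 408 and 541 in the GLUP libraries. The log2 difference of that total was 0.96, and 0.08 without Con replicate 2.

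The gap of RFXANK in Con replicate 2 became smaller, but stayed, when a trend with GC content and length was taken out of each library. The canonical RFXANK transcript has 60.5% G and C, higher than in 91.8% of tested genes. On the log2 scale, RFXANK in Con replicate 2 differed by -2.66 from the median of the other 5 libraries, with 71 of 7406 genes (0.959%) lower still, and after removal of the GC and length trend it differed by -1.80, with 139 of 7279 genes (1.91%) lower still. The gap of NR2C2AP went from -1.09 to -0.50 and that of BORCS8 from -1.41 to -0.65. RFX5, near the middle of the GC range (percentile 57.2), went from -0.71 to -0.87, and CD74 from -0.50 to 0.32. With the trend removed, the GLUP against Con difference of RFXANK was 0.64 (SE 0.48). The part of base composition in these levels was not tested.

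**Figure D3:**
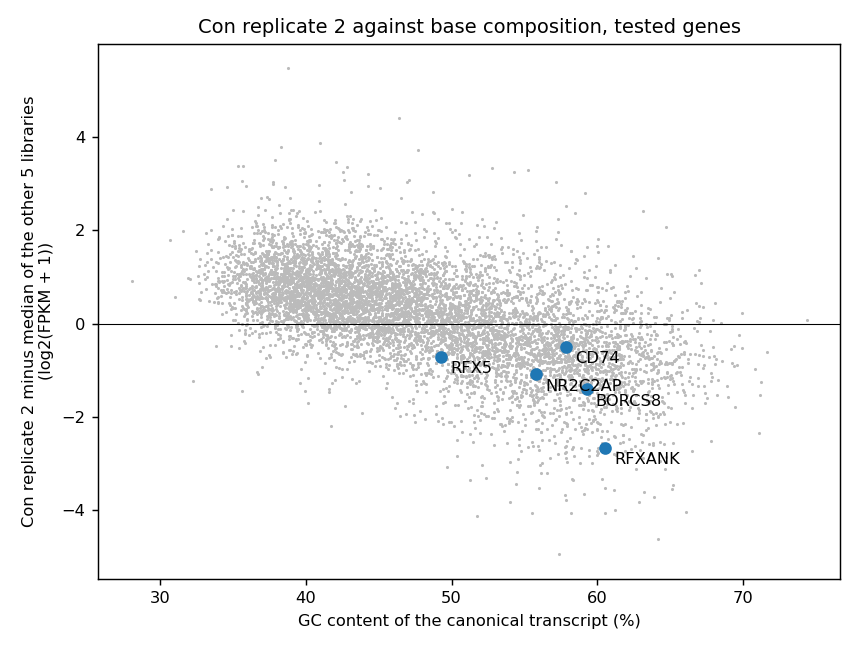
Difference of Con replicate 2 from the median of the other 5 libraries (log2) against the GC content of the canonical transcript (percent) for tested genes, with the 5 tested genes of the 8 as large points. RFXANK sits at 60.5% GC and -2.66, lower than all but 71 of 7406 genes.

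The genes around the locus were in part lowest in Con replicate 2 too. Of 18 annotated genes within 200 kb, 17 were in the table, 6 of them at 0 in every library and 4 others averaging under 1 FPKM. Of the 7 tested, Con replicate 2 was the lowest library in 5, against 28.8% of all tested genes: BORCS8 and NR2C2AP, ARMC6 (1.34 FPKM against 4.08 to 7.03 elsewhere), TMEM161A (0.386 against 0.763 to 4.13) and SUGP1 (1.49 against 3.08 to 5.29). SUGP2, at 3.41 FPKM, and GATAD2A, at 1.48 FPKM, were not lowest there. The canonical transcripts of the 5 were richer in G and C than 78.9% (NR2C2AP) to 95.4% (TMEM161A) of tested genes. Those of SUGP2 and GATAD2A were richer than 67.0% and 83.0%. The part of base composition in this count was not tested. In all 7 the Con and GLUP values overlapped. MEF2B, whose annotation overlaps that of BORCS8, was listed at 0 in every library.

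Over the 6 libraries, the genes most like RFXANK by Pearson correlation of log2(FPKM + 1) among 7405 other tested genes included NR2C2AP, in first place (r = 0.999), CCDC51, MRPS12 and AIMP2. In all, 303 genes (4.09%) passed 0.95, and the points share Con replicate 2: MRPS12, a mitochondrial ribosomal protein, measured 38.7 FPKM there and 182 to 219 FPKM elsewhere. RFX5 ranked 418, BORCS8 726 and CD74 2459. Over the 5 libraries without Con replicate 2 the leading genes were EML4, CUX1, ENSG00000258790, ENSG00000256843 and SDHAP1, and NR2C2AP ranked 11. The other tested members ranked 3490 for RFX5 (r = -0.14), 6216 for BORCS8 (r = -0.58) and 1278 for CD74 (r = 0.39). EML4 measured 16.9 FPKM in GLUP replicate 3, the library with the highest RFXANK level, and 9.88 to 10.7 FPKM in the other 4.

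The partners of RFXANK in the RFX complex were far scarcer than RFXANK itself. RFX5 (ENSG00000143390, chr1:151313116-151319802, minus strand, GRCh37), the DNA-binding subunit, measured 3.60, 1.58 and 2.78 FPKM in the Con libraries and 3.36, 3.12 and 3.22 FPKM in the GLUP libraries. Con replicate 2 was again lowest and Con replicate 1 highest, so that the groups overlapped. Means were 2.65 ± 1.02 and 3.24 ± 0.122 FPKM (SD, n = 3 each), with a log2 difference of 0.25 (SE 0.28, limma adjusted p = 0.572) that was 0.02 without Con replicate 2. Per length, RFXANK exceeded RFX5 by 28.4 times in Con replicate 2 and by 80.2 to 118 times in the other libraries.

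RFXAP (ENSG00000133111, chr13:37393359-37403241, plus strand), the subunit that bridges the other two, was below the minimum for testing. It measured 0.154, 0.298 and 0.127 FPKM in the Con libraries and 0.105, 0.121 and 0 FPKM in the GLUP libraries. All 3 GLUP values were below all Con values, but on the estimated depth these were only about 4.02 to 8.71 fragments per Con library and 0 to 4.25 per GLUP library. Con replicate 2 was its highest library, the opposite of RFXANK and RFX5. The log2 difference was -0.15 (SE 0.09), or -0.09 without Con replicate 2, and was not tested.

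CIITA (ENSG00000179583, chr16:10960079-11036878, plus strand) was at the limit of detection in both groups. It was listed at 0.0316, 0 and 0.0148 FPKM in the Con libraries and at 0, 0 and 0.0144 FPKM in the GLUP libraries. Con replicate 2 and GLUP replicates 1 and 2 were at 0, and no difference could be given at this depth.

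CD74 (ENSG00000019582, chr5:149781200-149792532, minus strand), a target of the RFX complex and CIITA, was the tested member whose groups did not overlap. It measured 0.609, 1.26 and 1.38 FPKM in the Con libraries and 2.22, 2.21 and 2.49 FPKM in the GLUP libraries. Every GLUP library was above every Con library, and the low RFXANK of Con replicate 2 had no counterpart in CD74, which was lowest in Con replicate 1. Means were 1.08 ± 0.417 and 2.30 ± 0.158 FPKM (SD, n = 3 each), with a log2 difference of 0.68 (SE 0.24), or 0.91 relative to the median gene; it was 1.09 and 1.16 with pseudocounts of 0.1 and 0.01. The limma p was 0.0172 and the p adjusted over 7406 genes 0.198, ranging from 0.0526 to 0.589 over the alternatives. After removal of the GC and length trend the difference was 0.43 (SE 0.30) and the groups overlapped, with Con replicate 2 at 1.80 on the log2 scale against 1.48 to 1.76 in GLUP.

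HLA-DRA (ENSG00000204287, chr6:32407655-32412823, plus strand), the class II alpha chain that pairs with the DRB chains, stayed below 1 FPKM. It measured 0.210, 0.489 and 0.735 FPKM in the Con libraries and 0.638, 0.895 and 0.975 FPKM in the GLUP libraries. GLUP replicate 1 lay below Con replicate 3, so the groups overlapped, and the estimated fragments were 3.89 to 12.5 per Con library and 11.3 to 16.9 per GLUP library. Means were 0.478 ± 0.263 and 0.836 ± 0.176 FPKM (SD, n = 3 each), a log2 difference of 0.32 (SE 0.18) that was not tested.

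**Figure D4:**
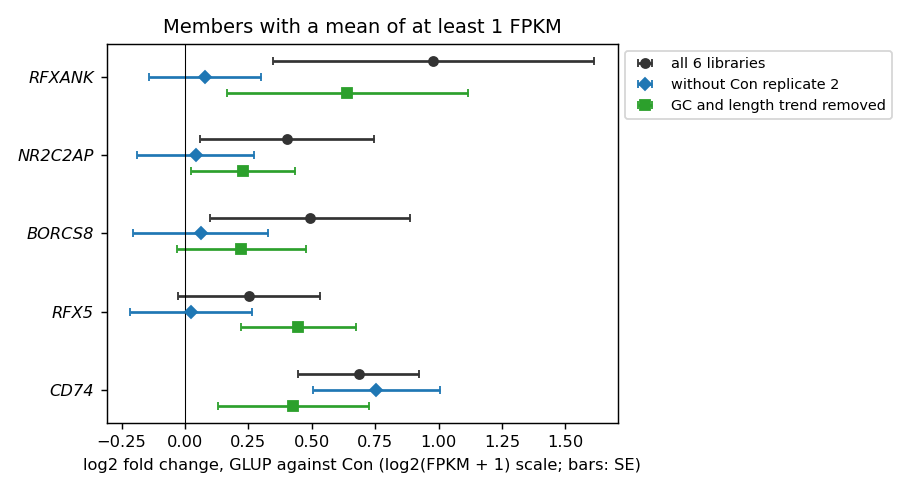
Log2 difference of GLUP against Con with its standard error for the 5 genes above the minimum, on the log2(FPKM + 1) scale, with all 6 libraries (circles), without Con replicate 2 (diamonds) and after removal of the GC and length trend (squares). RFXANK moves from 0.98 to 0.08 without Con replicate 2, while CD74 is 0.68 with it and 0.75 without.

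Of the 8 genes, 5 passed the minimum of 1 FPKM and 3 did not. None of the 4 tested apart from RFXANK passed an adjusted p of 0.05 in limma, where 0% of the 7406 genes did, and 1 of them (CD74) had an unadjusted p under 0.05, against 21.7% of genes. An exact permutation of 3 against 3 libraries can give no p below 0.1. The groups did not overlap for 1 of the 5 genes, RFXANK counted as a description, below the 30.3% of all tested genes for which they did not (7.55% with GLUP higher and 22.7% lower). Relative to the other genes of a library the picture moved: under rescaling by a trimmed mean (28.7% of all genes), the upper quartile (28.7%) or quantiles (29.2%), the groups of NR2C2AP, RFX5 and CD74 did not overlap, and after removal of the GC and length trend (28.2%) those of RFX5 alone did not. Leaving out Con replicate 1 (35.6% of all genes) added RFX5 to CD74, and leaving out GLUP replicate 2 (35.5%) added NR2C2AP.

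The class II chains were nearly silent in both groups. Of 9 listed, 0 reached a mean of 1 FPKM and 4 were at 0 in every library (HLA-DPB1, HLA-DQA1, HLA-DQA2 and HLA-DQB2). HLA-DRB1 ranged from 0.285 to 0.407 FPKM in Con and from 0.354 to 0.606 FPKM in GLUP, second to HLA-DRA. The 9 chains together summed to 0.920, 0.970 and 1.02 FPKM in the Con libraries and 1.45, 1.42 and 1.57 FPKM in the GLUP libraries. Beside this, 10 of 11 leukocyte markers, those reported here, summed to 0.0108 to 0.289 FPKM in Con and 0.0164 to 0.0869 FPKM in GLUP. CD79A, MS4A1 and CD3E were at 0 in every library, and PTPRC and CD14 did not exceed 0.0440 FPKM. The part of other cells in these levels was not tested, and in bulk RNA a change in the number of expressing cells cannot be told apart from a change in RNA per cell.

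Of 5 loading genes, CD74 and HLA-DMA were tested. HLA-DMA, the best expressed loading gene, measured 3.41 ± 0.512 FPKM in Con and 4.0 ± 1.04 FPKM in GLUP (SD, n = 3 each; limma adjusted p = 0.705), a log2 difference of 0.17, and of 0.07 without Con replicate 2. HLA-DOA was at 0, and HLA-DMB and HLA-DOB did not reach 0.124 FPKM. All 6 genes that cut or reduce antigens for class II were tested and 0 passed the threshold. Their median log2 difference was 0.42, and 0.145 without Con replicate 2. IFI30, the thiol reductase of antigen processing, measured 49.9, 22.9 and 70.4 FPKM in the Con libraries and 88.4, 72.9 and 103 FPKM in the GLUP libraries. Its groups did not overlap, and the log2 difference was 0.99 (SE 0.41, limma adjusted p = 0.210), or 0.55 without Con replicate 2. CTSL, the cathepsin with the highest level, measured 25.6 ± 7.20 and 23.4 ± 1.30 FPKM (SD, n = 3 each; limma adjusted p = 0.866), with a direction that turned under rescaling.

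The other factors of the X and Y boxes moved in both directions and none passed the threshold. Of 8 enhanceosome genes, RFX subunits included, 6 reached the minimum. Their median log2 difference was 0.07, and -0.0050 without Con replicate 2. RFXANK is 1 of the 6, so the median draws on the values it was chosen by and is a description only. NFYC measured 7.93, 3.95 and 7.04 FPKM in Con and 9.28, 8.05 and 9.39 FPKM in GLUP, without overlap (log2 difference 0.48, SE 0.31, limma adjusted p = 0.338, and 0.22 without Con replicate 2). NFYB, its partner in the NF-Y trimer, measured 3.34, 5.02 and 1.51 FPKM in Con and 1.01, 1.35 and 1.12 FPKM in GLUP, without overlap in the other direction (-0.90, SE 0.32, limma adjusted p = 0.198). After removal of the GC and length trend the NFYB difference was -0.25.

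Of 9 genes that carry interferon-gamma signals to CIITA, with CIITA itself, 3 were tested and 0 passed the threshold; the median log2 difference of the 3 was -0.59. IFNGR1, a chain of the interferon-gamma receptor, measured 8.57, 6.95 and 5.37 FPKM in Con and 5.06, 4.60 and 3.37 FPKM in GLUP, without overlap (-0.57, SE 0.29, limma adjusted p = 0.259), but its difference was 0.0026 after removal of the GC and length trend. IRF1, which drives a CIITA promoter, fell short of the minimum at 0.510 to 0.582 FPKM in Con and 1.27 to 1.77 FPKM in GLUP, the opposite direction to IFNGR1, and was not tested.

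Class I genes, whose promoters share the module, had the highest median log2 difference of the lists followed, 1.35, and 0.755 without Con replicate 2. Of 8 listed, 7 were tested and 0 passed the adjusted threshold in limma, while 5 had an unadjusted p under 0.05, against 21.7% of all genes. HLA-B, a class I heavy chain, measured 130, 42.4 and 171 FPKM in Con and 307, 247 and 212 FPKM in GLUP. Every GLUP library was above every Con library, with a log2 difference of 1.35 (SE 0.48, limma adjusted p = 0.198) that was 0.75 without Con replicate 2. The groups of HLA-C, HLA-E and HLA-F, named after their values were seen, likewise did not overlap, with log2 differences of 1.70, 1.38 and 1.55, and of 1.08, 0.86 and 0.83 without Con replicate 2. Among all tested genes, 7.55% had groups without overlap and GLUP higher. The class I heavy chains are related in sequence, and how reads that match several of them were assigned is not given in the sources used here, so the levels of single chains are uncertain. B2M, the most abundant gene of the lists, measured 8572 ± 1730 FPKM in Con and 10897 ± 1357 FPKM in GLUP (SD, n = 3 each; limma adjusted p = 0.319) with overlap. NLRC5, the class I counterpart of CIITA, measured 1.61 ± 0.433 and 1.53 ± 0.390 FPKM (SD, n = 3 each; limma adjusted p = 0.921), with a direction that turned under rescaling.

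Over all lists of the pathway and its neighbours, which hold the 8 genes apart from NR2C2AP, 69 genes were named and 39 were tested. RFXANK, whose own difference is a description only, is counted among the 39. Of these, 0 passed an adjusted p of 0.05 in limma, against 0% of all genes. An unadjusted p under 0.05 was found for 10, against 21.7% of all genes. The groups did not overlap for 12 genes with GLUP higher and 6 with GLUP lower, together 46.2% of the 39, against 30.3% of all genes. Their median log2 difference was 0.18, against -0.23 over all tested genes. Without Con replicate 2 the middle one of the 39 differences was 0.06 (BORCS8), against -0.19 for the tested genes as a whole. One library decided the count of calls: without Con replicate 3, 7 of the 39 passed, against 18.5% of all genes. Of these, 4 (HLA-B, HLA-C, HLA-E and VGLL4) were higher, against 2.2% of all genes, and 3 (CTCF and NFYB among them) lower, against 16.3%. VGLL4, also among the 12 above, averaged 0.879 FPKM in Con and passed the minimum of 1 FPKM only through GLUP. Without Con replicate 2, 0 of the 39 passed, against 0.0405% of all genes.

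**Figure D5:**
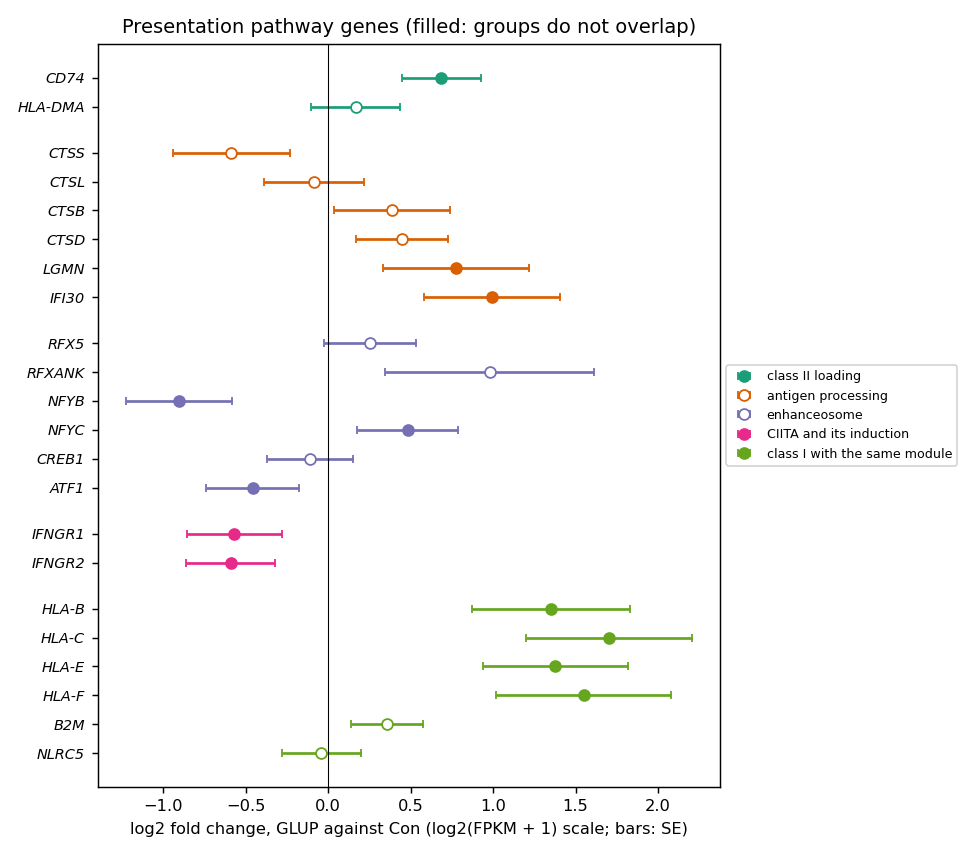
Log2 difference of GLUP against Con for tested genes of 5 lists on the log2(FPKM + 1) scale, one point per gene with its standard error, coloured by list and filled where the groups did not overlap; the line is at 0, and the median of all tested genes was -0.23. The class I heavy chains lie farthest to the higher side, up to 1.70 for HLA-C, and IFNGR1 and IFNGR2, upstream of CIITA, lie at -0.57 and -0.59.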

How the data were processed

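RNA from HGC-27 cells was sequenced in 3 Con and 3 GLUP libraries. The authors deposited 1 table of FPKM values, already normalized for length and library size; the submitters' processing notes name HISAT2, Cufflinks, RSEM and GRCh38.p10, and whether reads were counted by strand is not given in the sources used here. Read counts were not recovered from these values. Of 62492 identifiers, 49 pseudoautosomal copies, all at 0, were summed with their partners, leaving 62443 genes; 0 per-sample columns were left unused.

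Values were taken as log2(FPKM + 1), so that fold changes of low genes are understated, and GLUP was compared with Con by limma 3.58.1 (R 4.3.3, eBayes with trend) over 7406 genes averaging 1 FPKM or more, with Benjamini-Hochberg adjustment over all of them. The procedure was tested on data simulated with the spread of the GLUP libraries in both groups. That simulation held no outlying library such as Con replicate 2, so it does not show how the procedure behaves with one. Genes below the minimum have differences from the unfiltered fit and no test. The GC and length trend was removed per library with a loess curve (span 0.5) over the 7279 tested genes (98.3%) with a canonical transcript. Fragment numbers were estimated from the spacing of the lowest values and are approximate. Figures were drawn with matplotlib 3.10.9.

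The 8 genes and the lists were chosen with earlier results of these data known. Named were the 8 genes, the 2 best expressed genes of each list and any that passed, tested neighbours within 200 kb and the 5 genes most like RFXANK with and without Con replicate 2; others are named as exceptions after their values were seen. Alternatives were other pseudocounts, minimums and scalings, no trend, GC correction, a replicate block and leaving out each library. A few genes that these rules name are not reported here and are left out of the text and figures; counts over lists include them unless stated.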

Additional observations from a re-analysis of the deposited data

How the results depend on the processing

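Over 201 alternative values, 0 of those for the 8 genes, their counts and the locus total changed direction. The other minimums, the absence of a filter or trend and the replicate block leave each difference as it was. Those values could not change direction and say nothing on stability. Without Con replicate 2 the differences of RFXANK, NR2C2AP, BORCS8 and RFX5 were 0.08, 0.04, 0.06 and 0.02. The RFXANK difference ranged from 0.08 to 1.45 when single libraries were left out, both ends set by Con libraries, and from 0.64 to 1.28 under the other alternatives; the locus total ranged from 0.08 to 1.42. The count of genes passing an adjusted p of 0.05 among the 4 tested stayed at 0 under each alternative. The count of genes without overlap, 1 of the 5 above the minimum, was 0 of 3 at a minimum of 5 FPKM, 3 under the trimmed mean, upper quartile and quantile scalings, and 1 to 2 with single libraries left out (2 without Con replicate 1 and without GLUP replicate 2). Passing genes of the pathway lists ranged from 0 to 7 with single libraries left out, 7 without Con replicate 3; over all genes, 1367 passed without Con replicate 3, 3 without Con replicate 2 and 0 with all libraries, and the cause was not tested. With pseudocounts of 0.1 and 0.01, the differences became 1.09 and 1.16 for CD74, -0.78 and -1.84 for RFXAP and 0.79 and 0.94 for HLA-DRA. Same-numbered libraries did not deviate together (correlations 0.13, -0.01 and -0.17), so the numbers were not taken as pairs. A replicate block cannot change a difference here, as both groups hold the same numbers. With it, the RFXANK difference of 0.98 had an SE of 0.50 and the count of passing pathway genes was 0. No GC-corrected value was computed for genes below the minimum, and no locus total under the pseudocount, minimum, trend, block, GC or quantile alternatives. Depth limited RFXAP to at most about 8.71 fragments per library and HLA-DRA to about 3.89 to 16.9.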

Other observations

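Of 9 genes of the RFX family and ANKRA2, the ankyrin-repeat relative of RFXANK, 3 were tested and 0 passed an adjusted p of 0.05 in limma. An unadjusted p under 0.05 was found for 0, against 21.7% of all genes. RFX2 measured 3.94, 8.81 and 2.73 FPKM in Con and 1.78, 2.75 and 2.41 FPKM in GLUP, with overlap (log2 difference -0.78, SE 0.36, limma adjusted p = 0.240); Con replicate 2 was its highest library, and the difference was -0.39 without it. ANKRA2 measured 1.41 ± 0.308 FPKM in Con and 0.948 ± 0.356 FPKM in GLUP (SD, n = 3 each; limma adjusted p = 0.394), and its direction turned after removal of the GC and length trend.

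All 8 subunits of BORC, the complex of BORCS8, were tested and 0 passed the threshold in limma. An unadjusted p under 0.05 was found for 0, against 21.7% of all genes. Their median log2 difference was 0.19, and -0.02 without Con replicate 2. BLOC1S1, the most abundant subunit, measured 82.5, 72.0 and 89.0 FPKM in Con and 96.8, 116 and 143 FPKM in GLUP, without overlap (0.53, SE 0.29, limma adjusted p = 0.288). KXD1 measured 21.1, 3.71 and 21.6 FPKM in Con and 35.9, 28.1 and 22.6 FPKM in GLUP, also without overlap; its log2 difference was 1.14 (SE 0.56, limma adjusted p = 0.254) and 0.40 without Con replicate 2.

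TEAD4, the factor that GLUP holds together, measured 1.71, 0.227 and 2.45 FPKM in Con and 1.46, 1.36 and 1.14 FPKM in GLUP, so that Con replicate 2 was its lowest library too (log2 difference 0.04, SE 0.35, limma adjusted p = 0.945), and its direction turned without Con replicate 2, without GLUP replicate 1 and after removal of the GC and length trend. Of the 7 genes of TEAD4 and the cofactors examined by the study, 5 were tested and 0 passed the threshold in limma. An unadjusted p under 0.05 was found for 1, against 21.7% of all genes. YY1 and CTCF, the most abundant of them, had log2 differences of -0.28 and -0.62 (limma adjusted p = 0.499 and 0.254), with overlap in both, and of -0.16 and -0.38 without Con replicate 2; that of YY1 was 0.0059 after removal of the GC and length trend. VGLL4, whose TEAD4-binding part GLUP copies, measured 0.676, 0.733 and 1.23 FPKM in Con and 1.91, 1.54 and 2.03 FPKM in GLUP, without overlap (0.60, SE 0.22, limma adjusted p = 0.198). VGLL4 is named here after its values were seen. Its mean was 0.879 FPKM in Con and 1.83 FPKM in GLUP. It thus passed the minimum of 1 FPKM only through GLUP, and its lack of overlap is a description only.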
